A study of Sus scrofa with 30 samples.

Results

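LDN is a substance that was added to the medium of neonatal islet cell clusters (NICCs) of the pig during their maturation in culture, with or without SB431542 (SB), an inhibitor of the receptor kinases for TGFβ, activin and nodal. The libraries were chosen by their labels: culture day 10, with LDN (8 libraries) or without it (8 libraries), which makes 16 of the 24 libraries of the series. The study asked how fetuin-A, a protein secreted by the liver, acts on the functional maturation of beta cells, and it used human serum albumin (HSA) as the control protein. NICCs are clusters of endocrine and other cells that grow out of minced and digested pancreas of newborn piglets. RNA of whole clusters was enriched for poly-A and sequenced in strand-specific libraries with reads of 75 bases. The design names 4 independent islet preparations, and the 6 conditions have 4 libraries each.

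All 16 libraries came from clusters kept in maturation medium with 0.6 mg/ml HSA up to culture day 10, which is maturation day 5. The HSA group had no further addition, the HSA + SB group had 10 μmol/l SB431542, the HSA + LDN group had LDN, and the HSA + SB + LDN group had both. The identity and the dose of LDN are not given in the sources used here. The clusters came from piglets of a range of ages, and no label assigns a library to an age, a sex, an animal or a preparation. Levels in whole clusters mix cell types, so fewer cells of a type and less RNA per cell cannot be told apart. The fetuin-A and day 6 libraries were not used in these comparisons, apart from fits to all 24 libraries and the values given as further observations.

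Counts summed to between 18883734 and 21194279 per library with LDN (median 20624716), and to between 19095896 and 24346119 without it (median 21019270). In HSA they ran from 19095896 to 22274149, in HSA + SB from 19533939 to 24346119, in HSA + LDN from 18883734 to 21194279 and in HSA + SB + LDN from 19741452 to 21012848. Of the 25880 genes of the deposited table, 14616 had enough counts to be tested, and 5335 had no count in any of the 16 libraries. Levels below are in CPM, counts relative to the total of the library, scaled by TMM, a normalisation that assumes most genes not to differ.

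Library numbers run through the 6 conditions in the same order 4 times, and the round, 1 to 4, is called the replicate number here. Across genes, deviations from the condition mean correlated between libraries of the same replicate number with r between 0.414 and 0.784 (24 library pairs), against between -0.546 and 0.277 for different numbers (72 library pairs). Each of the 16 libraries was closest to the others of its own number. The library nearest to each was in 16 of 16 cases the one that differed from it only by LDN. Replicate number accounted for 51.2% of the sum of squares of log2 CPM, SB for 25.8%, LDN for 3.26% and the interaction of SB and LDN for 2.10%. The replicate number was therefore used as a blocking factor in a fit that is given beside the fit without it. A library with LDN and its counterpart of the same number and SB state are called a pair (8 pairs). Each replicate number gives a pair with SB and a pair without it, so the 8 pairs are not 8 independent samples. Standard deviations (SDs) over the pairs describe their spread only.

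Some features of the libraries bear on what follows. Of the 8 libraries without LDN, 4 were listed as 2 sequencing runs (replicates 2 and 3 of HSA and of HSA + SB), and 0 of the 8 with LDN were, so in these replicates the number of runs and LDN cannot be told apart. HSA replicate 3 was low in stromal markers, a difference that was not tested. Stromal marker transcripts summed to 9589, 10669.5, 3221 and 12091 CPM in the HSA libraries, replicates 1 to 4 in order. The third of these is the low one, also against 10720.2, 9776, 7149 and 10504 CPM in HSA + LDN. Counts of changed genes are therefore also given without this library.

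Bone morphogenetic proteins (BMPs) bind pairs of type I and type II receptors, which phosphorylate SMAD1, SMAD5 and SMAD9. With SMAD4 these enter the nucleus and switch on target genes, best known among them the ID genes, whose proteins bind basic helix-loop-helix (bHLH) transcription factors and keep them off DNA. TGFβ and activin use related receptors and SMAD2 and SMAD3, the branch that SB431542 blocks, and bHLH factors such as NEUROG3 and NEUROD1 direct the formation and maturation of endocrine cells in the pancreas. Lists of ligands, receptors, antagonists and targets of both branches were examined for LDN. These lists, and the cell type lists further below, were written with earlier results of these data known.

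ID3, ID4 and ID2 were lower with LDN, in every one of the 8 pairs. ID3 (ENSSSCG00000039514) was at 59.0, 51.7, 32.8 and 71.9 CPM in HSA and at 30.2, 27.3, 26.6 and 40.1 CPM in HSA + LDN, in order of replicate number. With SB in the medium, ID3 was at 76.9, 54.2, 52.0 and 86.8 CPM without LDN and at 26.1, 18.4, 20.8 and 46.1 CPM with it. The 4 libraries with SB but no LDN and 3 of the 4 HSA libraries lay above every library with LDN, and HSA replicate 3 lay among the LDN libraries, though above its own partner. ID3 fell with LDN in the fit with the replicate block (log2 fold change -1.04, SE 0.11, edgeR adjusted p = 0.00139).

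ID4 (ENSSSCG00000024312) was at 146, 110.0, 106 and 126 CPM in HSA and at 103, 94.9, 81.9 and 110.0 CPM in HSA + LDN. With SB it was at 154, 129.5, 107 and 125 CPM without LDN and at 96.5, 75.2, 73.3 and 80.0 CPM with it. With SB the groups did not overlap, and without SB the highest LDN library, replicate 4, reached the range of HSA. ID4 fell with LDN (log2 fold change -0.49, SE 0.06, edgeR adjusted p = 0.00372).

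ID2 (ENSSSCG00000008645), with the highest mean CPM over the 16 libraries on the BMP target list, was at 180.4, 151, 126 and 98.1 CPM in HSA and at 130.2, 123, 107 and 81.5 CPM in HSA + LDN. In the presence of SB it was at 207, 157, 149 and 128 CPM without LDN and at 160.1, 141, 121 and 100.4 CPM with it. The groups overlapped, since replicate 1 was high and replicate 4 low in all 4 conditions, and each LDN library was below its own partner. ID2 fell with LDN (log2 fold change -0.31, SE 0.03, edgeR adjusted p = 0.00178).

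**Figure D1:**
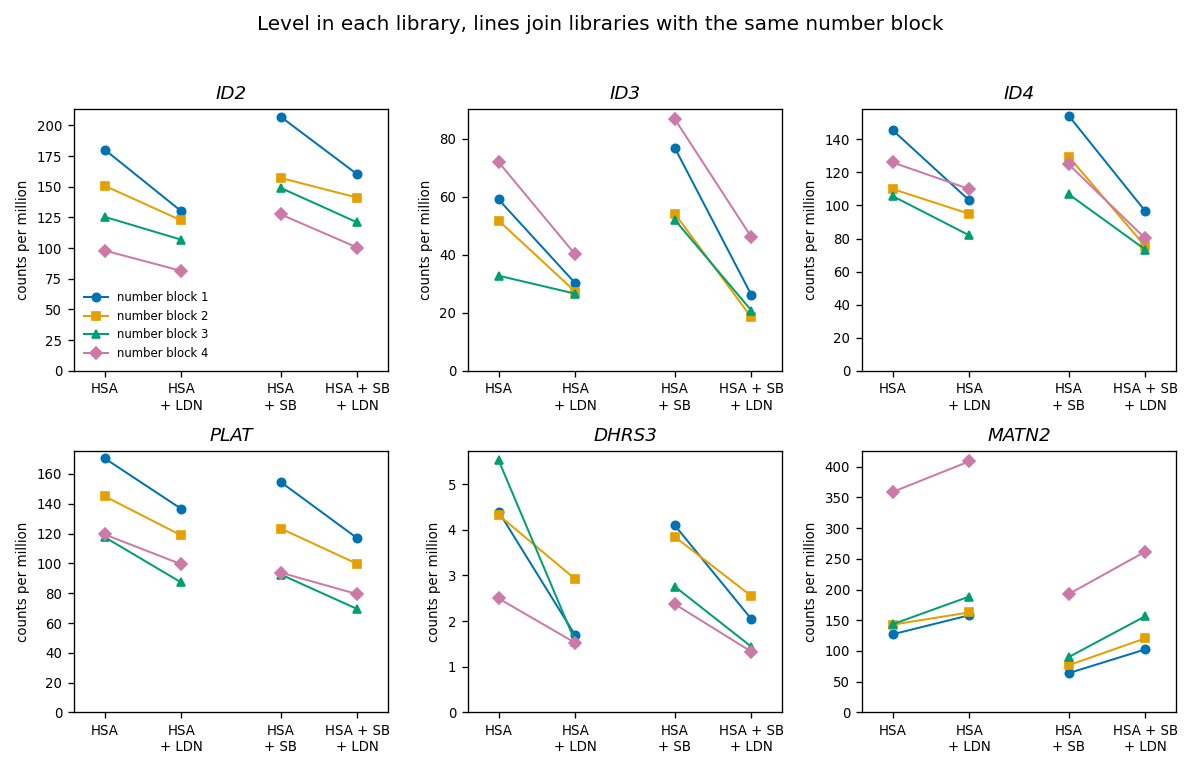
CPM of ID2, ID3, ID4, PLAT, DHRS3 and MATN2 (vertical axes) in each of the 16 libraries, by condition (horizontal axes), with lines joining libraries of the same replicate number. ID3 runs from 32.8 to 86.8 CPM without LDN and from 18.4 to 46.1 CPM with it.

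Across all genes, edgeR without the block called 0 of 14616 changed with LDN at an adjusted p below 0.05 (0%), and 541 had an unadjusted p below 0.05. The smallest adjusted p there was 0.613. DESeq2 without the block called 5, of which ID3, ID4 and DHRS3 were lower and FRAS1 and KLHL15 were higher with LDN. With the replicate block, edgeR called 30 genes (0.205% of those tested), 15 lower (0.103%) and 15 higher (0.103%), of which 2 also passed an absolute log2 fold change of 1. The changes were small, with absolute log2 fold changes between 0.16 and 1.47 and a median of 0.34. DESeq2 with the block called 209, among them 28 of these 30.

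The number of calls with the block depended on single libraries. Without HSA replicate 3, edgeR called 52 genes with the block, 28 of the 30 among them, and without the block 0 (499 at an unadjusted p below 0.05). The count was 102 without HSA replicate 4, 82 without HSA replicate 1 and 58 without HSA + SB + LDN replicate 4. It was 7 without replicate 2 or replicate 4 of HSA + SB, and 7 without replicate 1 or replicate 3 of HSA + SB + LDN. Leaving out HSA + SB + LDN replicate 2 gave 8, HSA + LDN replicate 4 gave 9, HSA + SB replicate 1 gave 10, HSA + LDN replicate 1 gave 12 and HSA + LDN replicate 3 gave 13. The ID genes kept their direction throughout, and adjusted p was below 0.05 for ID3 and ID2 in 28 and for ID4 in 26 of the 29 fits with the block.

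Fits that took the number of runs into account gave fewer calls, with fewer libraries or with a covariate that overlaps with LDN, and the part of the number of runs was not tested. In replicates 1 and 4 alone, where every library was 1 run, edgeR with the block called 5 genes (ID3, ID2, AADAC, ADCYAP1 and ENSSSCG00000039325, chosen after their values were seen). With the number of runs as a covariate and the block, edgeR called 2, ID2 and PLAT, and ID3 had a log2 fold change of -1.07 at an adjusted p of 0.0774.

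The list of BMP-SMAD target genes held 31 names, of which 30 were in the table and 23 could be tested. Of these 23, 3 fell (ID2, ID3 and ID4) and 0 rose with the block, against 0.103% of all genes for each direction. Lower in all 8 pairs were 5 of the 23, namely ID2, ID3, ID4, SMAD9 and DLX2, against 1.7% of all genes tested. The median log2 fold change of the 23 was -0.11, against 0.00 over all genes. Because the list was written with earlier results of these data known, these shares are not an independent test. The transcripts of the list summed to 804, 692, 605 and 683 CPM in HSA and to 661, 624, 569 and 601 CPM in HSA + LDN. With SB they summed to 744, 632, 603 and 675 CPM without LDN and to 582, 518, 501 and 532 CPM with it. This sum was lower with LDN in 8 of 8 pairs, by -0.245 ± 0.0949 on the log2 scale (SD, n = 8 pairs). It includes ID2, ID3 and ID4, each lower in all 8 pairs, and so is not a result apart from theirs. The sum of the other members was not examined.

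ATOH8, a bHLH factor induced by BMP-SMAD signalling, was weakly expressed, at 2.20, 1.01, 1.80 and 1.46 CPM in HSA and 1.45, 0.856, 1.03 and 1.58 CPM in HSA + LDN. Among the SB libraries it was at 5.48, 2.39, 2.90 and 2.18 CPM without LDN and at 1.30, 0.673, 1.25 and 1.68 CPM with it. The groups overlapped without SB and were apart with SB, where replicate 1 without LDN was the highest. Its main effect did not pass the test (log2 fold change -0.93, SE 0.21, edgeR adjusted p = 0.0791).

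SMAD9, itself a BMP-responsive SMAD, was at 8.66, 8.74, 6.15 and 11.8 CPM in HSA and at 5.64, 7.05, 6.07 and 9.15 CPM in HSA + LDN. SB libraries had it at 5.60, 5.51, 5.61 and 8.52 CPM without LDN and at 2.89, 5.10, 4.84 and 6.06 CPM with it. Each LDN library was below its partner, the ranges overlapped, and SMAD9 did not pass the test (log2 fold change -0.38, SE 0.10, edgeR adjusted p = 0.112). The inhibitory SMADs did not pass either: SMAD6, which blocks the BMP branch, had a log2 fold change of -0.39 (edgeR adjusted p = 0.251). SMAD7, which blocks both branches, had one of -0.28 (edgeR adjusted p = 0.241). DLX2, a homeobox factor, was at -0.45 (edgeR adjusted p = 0.227), and BAMBI, a decoy receptor, was at -0.01 (edgeR adjusted p = 0.966).

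The other 14 tested targets, HEY1, HES1, MSX1, MSX2, GATA2, GATA3, TBX2, TBX3, RUNX2, VEPH1, SMURF1, SMURF2, BMPER and CHRDL1, had log2 fold changes between -0.34 (MSX2) and 0.21 (VEPH1), and 0 of them passed. ID1 could not be tested, with 13 counts in all over the 16 libraries, and HAMP had no count.

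**Figure D2:**
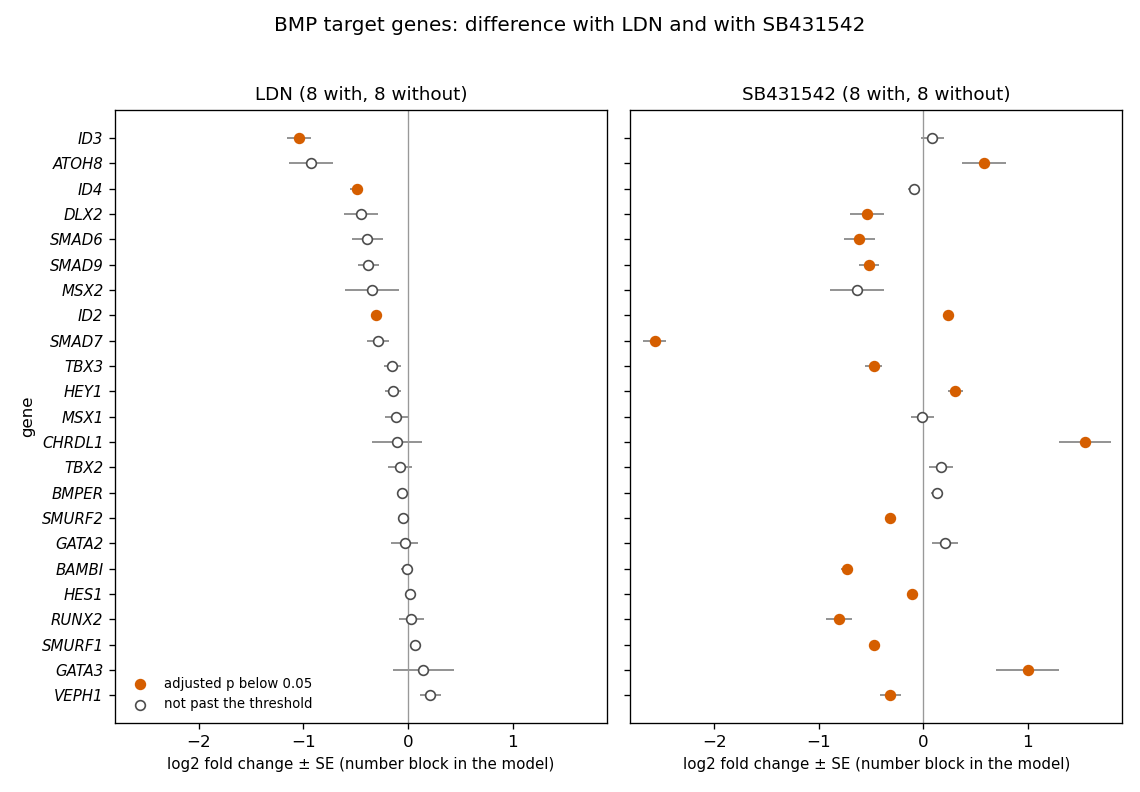
Log2 fold change (horizontal axis) with its SE of each tested BMP-SMAD target gene (vertical axis) for LDN and for SB, from the fit with the replicate block, with orange marking an adjusted p below 0.05. For LDN the marked genes are ID3 (-1.04), ID4 (-0.49) and ID2 (-0.31).

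On the lists of genes upstream of these targets the block fit called 0 genes for LDN, where it called 0.205% of all genes. Of 13 BMP ligands listed, 11 were in the table and 7 were tested, and edgeR with the block called 0. BMP7 had the highest mean CPM of them (log2 fold change 0.11, edgeR adjusted p = 0.525), and BMP5 had the smallest p (log2 fold change -0.42, SE 0.11, edgeR adjusted p = 0.11). BMP5 was at 3.16, 3.22, 0.943 and 2.70 CPM in HSA, 2.61, 2.52, 0.988 and 1.94 CPM in HSA + LDN, 5.23, 4.94, 1.96 and 4.65 CPM in HSA + SB and 3.29, 3.51, 0.959 and 4.19 CPM in HSA + SB + LDN. Replicate 3 was low in all 4 conditions, and 7 of the 8 pairs were lower with LDN. The other ligands had log2 fold changes of -0.14 (BMP2), -0.02 (BMP3), -0.01 (BMP4), -0.03 (BMP6) and 0.54 (GDF6).

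All 11 receptors and SMADs of the BMP branch were tested and 0 were called, with a median log2 fold change of 0.01. The type I receptors BMPR1A and ACVR1 were at -0.03 and 0.00, the type II receptor BMPR2 at 0.03, and SMAD1, SMAD5 and SMAD4 at -0.02, 0.03 and 0.02. Of the receptors, BMPR1B had the widest estimate (log2 fold change 0.34, SE 0.18, edgeR adjusted p = 0.408), and ACVR2A, ACVR2B and ACVRL1 were at 0.01, 0.08 and 0.00. The 95% interval ran from -0.04 to 0.08 for SMAD4 and from -0.10 to 0.05 for BMPR1A. Phosphorylation of the SMADs is not read by these libraries.

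Of 18 secreted antagonists and other modulators, 12 were tested and 0 were called, with a median log2 fold change of 0.11. The co-receptor RGMA had the smallest p (log2 fold change 0.29, SE 0.08, edgeR adjusted p = 0.117), and it was higher with LDN in 7 of 8 pairs. CHRDL2, a chordin-like antagonist, was at 2.34, 2.40, 0.449 and 2.18 CPM in HSA and at 3.43, 3.07, 2.73 and 2.15 CPM in HSA + LDN, where HSA replicate 3 is the low library (log2 fold change 0.66, edgeR adjusted p = 0.188). The remaining 10 lay between -0.11 (CHRDL1) and 0.20 (FSTL1): CHRD at -0.03, BMPER at -0.06, FST at -0.09, FSTL3 at 0.11, TWSG1 at -0.05, NBL1 at 0.17, CER1 at 0.11 and RGMB at 0.16. Over the 16 libraries the summed level lay between 44.3 and 79.8 CPM for BMP ligands and between 573 and 676 CPM for receptors and SMADs.

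Among the other genes that fell with LDN, PLAT (ENSSSCG00000007032), the tissue-type plasminogen activator, had the smallest p of all. It was at 171, 145, 118 and 119 CPM in HSA and at 137, 119, 87.2 and 99.4 CPM in HSA + LDN. With SB, PLAT was at 155, 123, 92.5 and 93.8 CPM without LDN and at 117, 99.7, 69.4 and 79.3 CPM with it. The groups overlapped, with replicate 1 the highest in all 4, and every LDN library was below its partner (log2 fold change -0.33, SE 0.03, edgeR adjusted p = 0.000305). Adjusted p was below 0.05 for PLAT in 27 of the 29 fits with the block, for DHRS3 in 23 and for MATN2 in 19. For the other genes of smallest p described below it was so in between 11 and 15 of up to 29 fits.

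DHRS3 (ENSSSCG00000003439), an enzyme that turns retinal back into retinol, was at 4.40, 4.32, 5.52 and 2.50 CPM in HSA and at 1.69, 2.92, 1.55 and 1.52 CPM in HSA + LDN. In medium with SB it was at 4.10, 3.85, 2.76 and 2.37 CPM without LDN and at 2.05, 2.55, 1.44 and 1.33 CPM with it. All LDN libraries were below their partners, and the ranges overlapped only through the lowest libraries without LDN (log2 fold change -0.99, SE 0.15, edgeR adjusted p = 0.0152). The LDN libraries of replicate 2 were the highest of their groups.

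The remaining 5 of the 10 genes with a symbol and the smallest p among those lower with LDN had smaller changes. TSPAN15, a tetraspanin, ran from 132 to 159 (median 141) CPM without LDN and from 114 to 148 (median 124) CPM with it (log2 fold change -0.18, SE 0.03, edgeR adjusted p = 0.0271). AKAP12, a scaffold of protein kinase A, ran from 41.3 to 86.7 (median 58.7) CPM without LDN and from 38.4 to 67.4 (median 45.7) CPM with it (log2 fold change -0.33, SE 0.06, edgeR adjusted p = 0.0377). For CNDP2, a cytosolic dipeptidase, the levels ran from 346 to 622 (median 459) CPM without LDN and from 312 to 446 (median 358) CPM with it (log2 fold change -0.31, SE 0.06, edgeR adjusted p = 0.0466). In all 3 the groups overlapped and each LDN library was below its partner. EEPD1, a nuclease of DNA repair, and PROSER2 fell with log2 fold changes of -0.28 and -0.20 (edgeR adjusted p = 0.0365 for each).

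Among the genes that rose with LDN, MATN2 (ENSSSCG00000006082), a matrix protein of the matrilin family, was at 127, 143, 144 and 359 CPM in HSA and at 158, 163, 189 and 409 CPM in HSA + LDN. In the presence of SB it was at 64.0, 76.8, 90.1 and 193 CPM without LDN and at 103, 121, 157 and 262 CPM with it. Replicate 4 was far above the others in each group, and all 8 pairs were higher with LDN (log2 fold change 0.45, SE 0.07, edgeR adjusted p = 0.0207). PTPRZ1, a receptor-type tyrosine phosphatase, ran from 9.57 to 47.0 (median 20.7) CPM without LDN and from 20.1 to 62.0 (median 28.7) CPM with it (log2 fold change 0.56, SE 0.10, edgeR adjusted p = 0.0374). SSTR1, a somatostatin receptor, ran from 5.98 to 13.2 (median 9.20) CPM without LDN and from 9.04 to 19.8 (median 12.1) CPM with it, higher in 7 of 8 pairs (log2 fold change 0.46, SE 0.08, edgeR adjusted p = 0.0375). The ranges of both genes overlapped.

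RNASE1, the pancreatic ribonuclease, was at 31.1, 26.8, 11.5 and 0.156 CPM in HSA and at 37.3, 39.4, 24.6 and 0.683 CPM in HSA + LDN. Among the SB libraries it was at 171, 108, 72.3 and 1.65 CPM without LDN and at 210.2, 161, 103 and 1.97 CPM with it. Replicate 4 was nearly without this transcript, the libraries with SB were above those without it within each replicate, and all 8 pairs were higher with LDN (log2 fold change 0.52, SE 0.09, edgeR adjusted p = 0.0365). MYO5C, a myosin of secretory vesicles, rose with a log2 fold change of 0.24 (edgeR adjusted p = 0.0233). TOB1, an antiproliferative factor, rose by 0.25 (edgeR adjusted p = 0.0277), complement factor C5 by 0.36 (edgeR adjusted p = 0.0313), PDK3, a kinase of pyruvate dehydrogenase, by 0.24 (edgeR adjusted p = 0.0375) and AFAP1L2, an adaptor protein, by 0.29 (edgeR adjusted p = 0.0375).

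Of the 30 genes, 10 lay outside the rule for naming genes and were chosen after their values were seen, to complete the count. FGF1, a fibroblast growth factor (log2 fold change -0.55), ELF3, an epithelial transcription factor (-0.35), and ADAM9, a membrane metalloprotease (-0.16), fell, each with an edgeR adjusted p of 0.0471, and ENSSSCG00000033727 (-0.28) and ENSSSCG00000008767 (-0.84), which have no symbol, fell too. PTH2R, a parathyroid hormone receptor (0.79), FRAS1, a basement membrane protein (0.23), KLHL15, an adaptor of ubiquitin ligases (0.17), RCVRN, the calcium sensor recoverin (0.48), and ENSSSCG00000037260 (1.47) rose. FRAS1 ran from 21.6 to 25.2 (median 24.1) CPM without LDN and from 25.03 to 29.9 (median 28.2) CPM with it, and the groups overlapped at their edge only.

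The summed level of acinar markers was higher in the same pairs. Of 16 listed, 9 were in the table and 7 were tested, and edgeR with the block called 0 for LDN, with a median log2 fold change of 0.40. Their transcripts summed to 12332, 4913, 3022 and 1006 CPM in HSA and to 12720.3, 5371, 6027 and 1574 CPM in HSA + LDN. With SB the sum was 13459, 8547, 9707 and 2936 CPM without LDN and 19968, 11884, 13048 and 3474 CPM with it. Replicate 1 was the highest and replicate 4 the lowest in each condition, and the sum was higher with LDN in 8 of 8 pairs, by 0.441 ± 0.307 on the log2 scale (SD, n = 8 pairs), most in the pair of HSA replicate 3.

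CPA1, a carboxypeptidase and the marker with the highest mean CPM over the 16 libraries, was at 6273, 2601, 1675 and 578 CPM in HSA and at 6914, 2890.4, 3394 and 922 CPM in HSA + LDN. SB libraries had it at 5688, 3472, 4354 and 1526 CPM without LDN and at 10657, 5929, 7012 and 1981 CPM with it. It and RBPJL, a transcription factor of acinar cells, were higher in all 8 pairs (2 of 7, against 1.88% of all genes tested), and neither passed the test (log2 fold change 0.56, edgeR adjusted p = 0.104 for CPA1). None of the 9 acinar markers was at 0 in all libraries, and their part in the result was not tested.

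**Figure D3:**
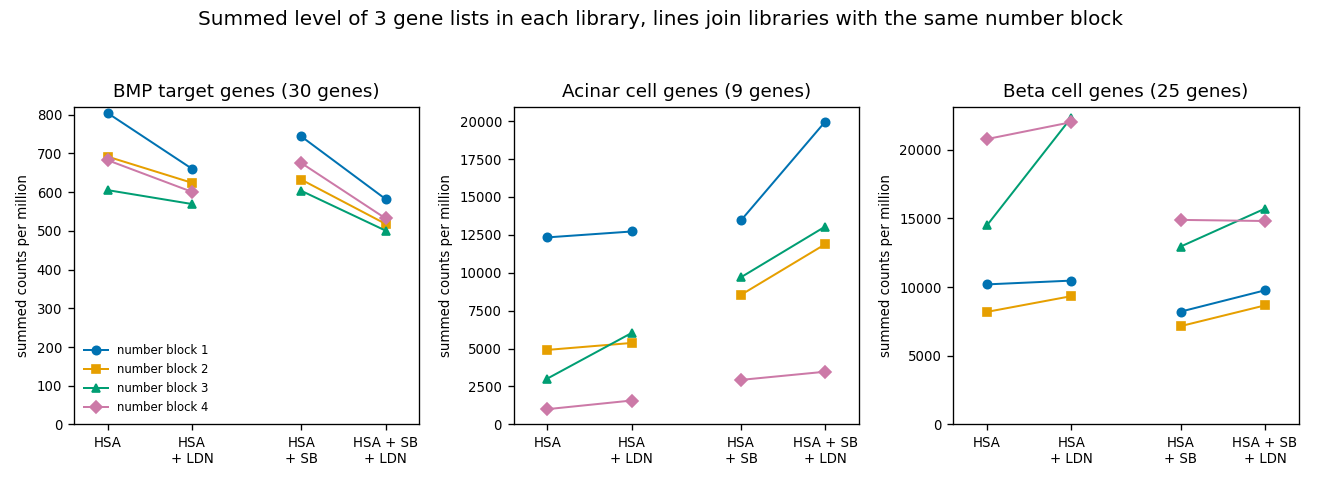
Summed CPM (vertical axes) of the BMP target list, the acinar markers and the beta cell list in each library, by condition (horizontal axes), with lines joining libraries of the same replicate number. The BMP target sum, which includes ID2, ID3 and ID4, runs from 501 to 804 CPM and is lower with LDN in 8 of 8 pairs. The acinar sum is higher with LDN in 8 of 8.

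LDN was also tested separately without SB and with SB in the medium. Without SB (HSA + LDN vs HSA), edgeR called 0 genes without the block (196 at an unadjusted p below 0.05) and 0 with it (1012), and DESeq2 called 0 and 13. PLAT had the smallest adjusted p with the block, 0.0622, at a log2 fold change of -0.33. The ID genes followed it, with log2 fold changes of -0.77 for ID3, -0.32 for ID2 and -0.32 for ID4 (edgeR adjusted p = 0.168, 0.168 and 0.218). DHRS3 was at -1.14 (edgeR adjusted p = 0.181). Counts with the block were 3 without HSA replicate 1, and 1 each without HSA replicate 3, HSA + SB replicate 1 or HSA + SB replicate 4.

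With SB (HSA + SB + LDN vs HSA + SB), edgeR called 0 genes without the block (509 at an unadjusted p below 0.05) and 53 with it (0.363% of those tested), 23 higher and 30 lower, while DESeq2 called 9 and 218. ID4 and ID3 had the smallest p, with log2 fold changes of -0.66 and -1.31 (edgeR adjusted p = 0.000461 and 0.000671). Of the 23 BMP-SMAD targets, 4 fell (ID2, ID3, ID4 and ATOH8) and 0 rose. ATOH8 had a log2 fold change of -1.38 (edgeR adjusted p = 0.0311), and SMAD9 one of -0.42 (edgeR adjusted p = 0.212).

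Of the genes that rose with LDN in the presence of SB, some are given that were chosen after their values were seen. VCAN, the proteoglycan versican, was at 32.6, 29.7, 38.0 and 59.0 CPM in HSA + SB and at 51.0, 50.0, 61.2 and 83.6 CPM in HSA + SB + LDN. In HSA it was at 92.1, 70.6, 107 and 169.8 CPM and in HSA + LDN at 89.6, 64.4, 99.9 and 159.6 CPM. With SB each LDN library was above its partner, without SB each was below it, and the libraries with SB were below those without SB of the same number (with SB: log2 fold change 0.65, SE 0.07, edgeR adjusted p = 0.00233). TNC (tenascin C) rose with a log2 fold change of 1.38, HAPLN1 (a link protein of hyaluronan) by 1.10, NID2 (a nidogen of basement membranes) by 0.46 and MATN2 by 0.65 (edgeR adjusted p = 0.026, 0.0241, 0.0311 and 0.00216). The stromal marker sum was 5663, 5935, 4295 and 7978 CPM in HSA + SB and 6605, 6615, 6100.1 and 8067 CPM in HSA + SB + LDN, higher in 4 of 4 pairs, and its part in these values was not tested.

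CPA4, a carboxypeptidase outside the acinar list, was at 3.68, 1.25, 1.59 and 0.629 CPM in HSA + SB and at 12.02, 3.65, 5.80 and 1.48 CPM in HSA + SB + LDN, higher in each pair (log2 fold change 1.68, SE 0.20, edgeR adjusted p = 0.00242). BTC, betacellulin, a growth factor for the EGF receptor, was at 8.95, 8.47, 13.7 and 24.0 CPM in HSA + SB and at 15.3, 11.7, 23.3 and 31.6 CPM in HSA + SB + LDN (log2 fold change 0.59, SE 0.08, edgeR adjusted p = 0.00534). For both genes the ranges overlapped, and the replicates differed in level. Among the genes that fell, SQSTM1 (an autophagy receptor) had a log2 fold change of -0.36 and GADD45A (a stress sensor) one of -0.32 (edgeR adjusted p = 0.026 and 0.0394).

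A call with SB and none without it does not show a difference between the states, and the interaction of LDN and SB was therefore tested. edgeR called 0 genes without the block (221 at an unadjusted p below 0.05) and 0 with it (971), and DESeq2 called 0 and 7. The 7 were VCAN, SKIL, SLPI, SPHK1, GFRA2, BTC and HABP2, chosen after their values were seen. VCAN had the smallest p in edgeR, with a difference of log2 fold changes of 0.74 (SE 0.10, edgeR adjusted p = 0.0764). For ID4 the log2 fold changes of -0.32 and -0.66 gave an unadjusted interaction p of 0.00103 (edgeR adjusted p = 0.521). For ID3 the adjusted interaction p was 0.666, for ATOH8 0.684 and for ID2 0.969 (edgeR). A p above the threshold does not show that the effects with and without SB were equal.

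The counts with SB turned on single libraries, above all on a library of the other comparison. Without HSA replicate 3, edgeR with the block called 429 genes for LDN with SB and 5 for the interaction (TINAGL1, SPHK1, VCAN, CPA4 and TNC, chosen after their values were seen). HSA replicate 3 is not a library of the contrast of LDN with SB. The fit, however, took its spread and its block terms from all 4 conditions, this library among them. What made that count differ was not tested. LDN with SB gave 235 genes without HSA + SB + LDN replicate 4 and 83 without HSA + SB replicate 4. It gave 9, 8 and 17 without replicates 1, 2 and 3 of HSA + SB, and 15, 7 and 7 without replicates 1, 2 and 3 of HSA + SB + LDN. Leaving out replicates 1, 2 and 4 of HSA + LDN gave 26, 32 and 23. The interaction gave 2 without HSA + SB replicate 4, and 1 each without replicate 2 or replicate 4 of HSA + SB + LDN. Number of runs as a covariate with the block left 2 genes for LDN with SB, ID4 and ID3, and replicates 1 and 4 alone left 2, ID3 and VCAN.

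SB in the same 16 libraries served as a yardstick for the size of the LDN effect. For SB, edgeR called 2682 genes without the block (18.3%) and 6045 with it (41.4%), and HSA replicate 3 changed these counts little (2675 and 6363 without it). LDN and SB were also compared directly, HSA + LDN vs HSA + SB, at the same day and at doses that cannot be matched because that of LDN is not given. There edgeR called 1235 genes without the block (8.45%), 676 higher and 559 lower with LDN, and 4908 with it (33.6%), or 1388 and 5528 without HSA replicate 3. Without the block this count was 566 and 623 without replicate 1 and replicate 2 of HSA + SB, and 760, 753 and 710 without replicates 1, 3 and 4 of HSA + LDN.

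Targets of the TGFβ branch were counted for both agents. Of 22 tested TGFβ-SMAD2/3 targets, edgeR with the block called 0 for LDN (median log2 fold change 0.06), against 0.205% of all genes, and 19 for SB, 16 lower and 3 higher (median -0.73), against 21.5% of all genes lower and 19.9% higher. PMEPA1, a feedback inhibitor of TGFβ signalling, was at 467, 499.9, 252 and 483 CPM in HSA and at 392, 439, 267 and 379 CPM in HSA + LDN. In medium with SB it was at 58.8, 49.8, 49.7 and 63.9 CPM without LDN and at 92.6, 84.5, 74.8 and 61.1 CPM with it. Libraries with and without SB were far apart, and those with and without LDN overlapped (LDN: log2 fold change 0.13, edgeR adjusted p = 0.697). In HSA + LDN vs HSA + SB, 13 of the 22 were higher and 3 lower, against 17.8% and 15.8% of all genes, and the median was 1.04.

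In HSA + LDN vs HSA + SB, 6 of the 23 BMP targets were lower and 8 higher with the block (median log2 fold change 0.09), against 15.8% of all genes lower and 17.8% higher. ID3 was lower with LDN (log2 fold change -1.11), as were ID2 (-0.54), ID4 (-0.40) and ATOH8 (-1.38), with edgeR adjusted p of 2.58e-05, 6.66e-06, 0.000188 and 0.000572. SMAD7 was higher (log2 fold change 2.35, edgeR adjusted p = 2.92e-07), as was BAMBI (log2 fold change 0.72, edgeR adjusted p = 3.7e-05). Both are targets of the TGFβ branch as well. SMAD7 was at 22.5, 19.2, 9.83 and 17.1 CPM in HSA, 15.6, 15.97, 8.66 and 11.1 CPM in HSA + LDN, 3.43, 2.29, 1.73 and 2.56 CPM in HSA + SB and 2.84, 3.17, 2.11 and 1.68 CPM in HSA + SB + LDN. The libraries with SB lay below all those without it.

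The genes with the smallest p in HSA + LDN vs HSA + SB, chosen after their values were seen, were PPP1R16B (log2 fold change -1.27), the chemokine CXCL14 (3.53), the activin subunit INHBA (2.97), the apoptosis factor BMF (1.30) and the ligand WNT5A (3.11), each with an edgeR adjusted p of 1.33e-08. For SB against its absence these 5 genes had log2 fold changes of 1.19, -3.09, -3.04, -1.40 and -2.94, and for LDN against its absence of -0.09, 0.35, -0.20, -0.10 and 0.07, where 0 of them passed. The comparisons share libraries.

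Genes of beta cell identity and secretion, the subject of the study, were also listed. All 25 list members in the table (of 30) were tested and 0 were called for LDN, where 0.205% of all genes were, with a median log2 fold change of 0.17 against 0.00 over all genes. Their transcripts summed to 10195, 8196, 14502 and 20778 CPM in HSA and to 10470.2, 9338, 22336 and 22005 CPM in HSA + LDN. With SB the sum was 8213, 7157, 12952 and 14890.0 CPM without LDN and 9763, 8665, 15711 and 14809.5 CPM with it. Replicates 3 and 4 were high throughout, and 7 of the 8 pairs were higher with LDN, by 0.216 ± 0.198 on the log2 scale (SD, n = 8 pairs).

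PCSK1, a prohormone convertase, was at 807, 663, 857 and 1602 CPM in HSA and at 891, 683, 1502 and 1722 CPM in HSA + LDN. With SB it was at 465, 361, 712 and 980.3 CPM without LDN and at 702, 593, 1232 and 1096 CPM with it. All 8 pairs were higher with LDN while the groups overlapped, and the test was not passed (log2 fold change 0.42, SE 0.09, edgeR adjusted p = 0.0786). SYT4, a synaptotagmin of secretory granules, was also higher in all 8 pairs (log2 fold change 0.32, SE 0.06, edgeR adjusted p = 0.056), and with SB it rose (log2 fold change 0.45, edgeR adjusted p = 0.0339). INS, the insulin gene, was at 1469, 419, 2730.3 and 5734 CPM in HSA and at 1513, 924, 4376 and 5849.7 CPM in HSA + LDN. Replicate 2 was the lowest and replicate 4 the highest in each (log2 fold change 0.26, edgeR adjusted p = 0.432). For SB, 18 of the 25 were lower and 1 higher, against 21.5% of all genes lower and 19.9% higher.

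Markers of other cells and states gave 0 calls by edgeR with the block for the LDN main effect, where 0.205% of all genes were called. The lists were other endocrine cells (10 tested, median log2 fold change 0.08), duct cells (9, -0.02), stromal cells (14, 0.22), endothelial cells (7, -0.10) and immune cells (8, -0.08), with cell cycle genes (12, 0.10) and stress and hypoxia genes (9, -0.03). The same held for ligands, receptors and SMADs of the TGFβ branch (18, 0.00). GCG had the highest mean CPM over the 16 libraries of the other endocrine cells, SPP1 of duct, SPARC of stromal, PECAM1 of endothelial and CD68 of immune markers, and each of these lists was detected. The cell cycle sum was higher with LDN in 7 of 8 pairs (by 0.129 ± 0.141, log2, SD, n = 8 pairs), as was the stress and hypoxia sum (by 0.0699 ± 0.0962, log2, SD, n = 8 pairs), and the immune sum was lower in 6 of 8 (by -0.125 ± 0.181, log2, SD, n = 8 pairs). The stromal sum was higher in 6 of 8 pairs, by 0.235 ± 0.430 (log2, SD, n = 8 pairs), where the low HSA replicate 3 gave the largest difference, 1.15. The part of these markers in the LDN results was not tested.

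With 4 libraries per condition and no label for the preparation, the p-values measure the spread between these samples and not between animals. The edgeR calls named for the LDN main effect and for LDN with SB come from fits with the order of library numbers as a block, which no label ties to a preparation.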

How the data were processed

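The authors deposited raw counts per gene for 25880 Ensembl identifiers and 24 libraries, with 1 column per library also where 2 runs were listed; 0 columns were left unused. Their processing notes name FastQC 0.11.8, Trim Galore 0.5, STAR 2.6.1, Picard, featureCounts 1.6.2 and DESeq2 1.22.1, without roles, order, genome build or annotation, and how runs were joined is not given. A gene name table matched 14857 of the identifiers to a symbol. Columns were matched to conditions by the description label.

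Counts of the 16 libraries were analysed in R 4.3.3 with edgeR 4.0.16: filterByExpr, TMM, and a quasi-likelihood test with LDN and SB as additive factors, with or without the replicate number as a block. A fit with 1 coefficient per condition gave the tests within each SB state, the interaction, and LDN against SB. Adjustment (Benjamini-Hochberg) covered all 14616 tested genes, and changed means an adjusted p below 0.05. DESeq2 1.42.0 (Wald test) was the other tool. The block was used because all 24 correlations between libraries of the same replicate number, taken from their library numbers, exceeded 0.1.

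Genes were named by a rule: every tested member of the BMP lists, changed members of other lists, and the 10 genes with a symbol and the smallest p in each direction of the LDN main effect, from the fit with the block, since the fit without it called fewer than 10. Some genes that this rule or the lists give are not reported here. The members and lists were chosen with earlier results of these data known.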

Additional observations from a re-analysis of the deposited data

Results flagged for a closer look

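In a group of 4 libraries, a library was singled out where its gap to the nearest of the others, divided by the range of the group, exceeded Dixon's 95% critical value. Chance gives this in about 1 in 20 groups, and 9 of the 148 groups checked were past it. TSPAN15 in HSA replicate 2 was at 157.7 CPM, above its group. EEPD1 in HSA + SB + LDN replicate 2 was at 46.78 CPM, above the others. MATN2 was far above the other libraries in HSA replicate 4, at 358.9 CPM. The same gene was at 408.8 CPM in HSA + LDN replicate 4. PTPRZ1 was at 61.97 CPM in HSA + LDN replicate 4, the highest of its group. AFAP1L2 was at 34.64 CPM in HSA + LDN replicate 4. It was at 33.66 CPM in HSA + SB + LDN replicate 4. SMAD9 in HSA + SB replicate 4 was at 8.517 CPM, above the other 3 libraries. TBX3 in HSA + SB + LDN replicate 4 was at 16.41 CPM, again above its group. Of the 9 values, 7 belong to replicate 4.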

How the results depend on the processing

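Counts are of genes at an adjusted p below 0.05, in the order LDN main effect, LDN with SB, LDN against SB and SB main effect, where not said otherwise. Without the replicate block edgeR gave 0, 0, 1235 and 2682, and with it 30, 53, 4908 and 6045. Other choices with the block gave 30, 61, 4923 and 6048 (size factors of DESeq2), 31, 76, 4961 and 6065 (upper-quartile), 48, 80, 4578 and 5740 (no filter), 29, 61, 4744 and 5733 (at least 10 counts in every library), 19, 14, 3876 and 5104 (all 24 libraries), 5, 2, 3077 and 4852 (libraries of 1 run only) and 2, 2, 2926 and 5984 (number of runs as a covariate). DESeq2's Wald test gave 209, 218, 4463 and 5702 with the block and 5, 9, 1982 and 3264 without it. Without the block, LDN against SB gave 57 and SB 886 in libraries of 1 run only, and LDN against SB 643 with the number of runs as a covariate. LDN without SB gave 0 except for 13 (Wald test with the block) and 1 each (upper-quartile or no filter, with the block). The interaction gave 0 except for 7 (Wald test with the block) and 1 (no filter with the block). The upper-quartile and unfiltered fits with the block, and those leaving out single libraries with the block, were chosen after seeing the data. Leaving out each library or replicate number in turn, with or without the block, gave 0 to 102 (LDN main effect), 0 to 3 (LDN without SB), 0 to 429 (LDN with SB), 0 to 5 (interaction), 566 to 5528 (LDN against SB) and 2049 to 6363 (SB). With a whole replicate number left out and the block kept, the LDN main effect gave 4 to 11, of which 2 to 7 were among the 30. For 25 named genes under up to 53 alternatives, 968 of the log2 fold changes stayed on their side of the threshold, 353 passed it where the fit without the block had not, and 0 turned direction. LDN's share of the sum of squares was 3.298% with a prior count of 0.5 and 3.26% with DESeq2's size factors. The causes of these differences were not tested. Counts of ID1, ATOH8 and DLX2 were low, and the part of depth in their results was not tested.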

Other observations

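Levels of the ID genes in the libraries outside the LDN comparison, scaled over all 24 libraries, are given as values without a test. ID3 was at 53.4 ± 9.79 CPM at day 6 (SD, n = 4), at 53.1 ± 16.01 CPM in HSA at day 10 and at 40.0 ± 15.1 CPM with fetuin-A. ID2 was at 197 ± 61.3 CPM at day 6, at 137 ± 34.9 CPM in HSA at day 10 and at 133 ± 18.2 CPM with fetuin-A (SD, n = 4 each). The SDs of neighbouring groups overlapped for both genes.

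One gene without a symbol, ENSSSCG00000039325, singled out after its values were seen, had counts almost only in replicate 1. There it had 85 counts in HSA at day 6, 72 in HSA at day 10, 51 with fetuin-A and 63 in HSA + SB, but 3 in HSA + LDN and 1 in HSA + SB + LDN. In replicates 2 to 4 it had between 0 and 4 counts in every library.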
